A study of Mus musculus with 20 samples.

Results

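Hmgn1, Brwd1, Morc3, Chaf1b, Mis18a, Donson, Setd4, Prdm15, Zbtb21 and Hlcs lie on the segment of mouse chromosome 16 that Ts1Cje mice carry in an extra copy. They were chosen by gene symbol as genes of that segment grouped under chromatin, centromeres and chromatin assembly. They are 10 of 20239 genes measured under 1 symbol each, and each was read by 1 probe set. RNA came from the forebrain of 20 mouse embryos at embryonic day 15, with 1 embryo per array.

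There were 4 groups of 5 embryos: wild-type (WT) and Ts1Cje embryos whose parents ate plain chow, and WT and Ts1Cje embryos whose parents ate apigenin. Plain chow was a purified powder. Apigenin, a flavone made by plants, was added to that powder for the breeding pairs from mating onwards (2 g in each kg), and the labels state a daily dose of 333 to 400 mg per kg. All embryos came from Ts1Cje sires and C57Bl/6J dams. Ts1Cje is a partial trisomy in which the extra piece of chromosome 16 is joined to the end of chromosome 12, so it models only some of the genes that are triplicated in trisomy 21. The comparisons ask what the extra copy did to these genes, what the compound did, and whether the genotypes differed in their response to it.

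DNA in the nucleus is wound on histones, and several of the proteins described here read, loosen, mark or rebuild that packaging. Others, such as Donson and Hlcs, are described below by other roles. CAF-1 and the Mis18 complex are needed each time a cell copies its DNA or divides, the first to place new histones behind the replication fork and the second to prepare the centromere for its special histone. In the embryonic forebrain, dividing progenitors that use this machinery lie beside neurons that have left the cell cycle.

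The arrays were alike in scale, with medians of 7.84 to 7.88 on the log2 scale. The mean over the 63 other measured genes of the segment ran from 8.19 to 8.27 in the 10 WT arrays and from 8.43 to 8.49 in the 10 Ts1Cje arrays, which fits the genotype label of every array. Forebrain markers averaged 9.84 to 10.21 per array and markers of midbrain, hindbrain and cord 6.55 to 6.87. WT plain chow replicate 1 stood apart from the other arrays on the principal components. The labels do not name litters, so p-values rest on the spread between embryos that may share a dam. Plain chow embryos were numbered from 87 upward and apigenin embryos from 1 to 59, and the effect of the chow cannot be told apart from that of the numbering.

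Promoters of 3 members are shown as examples. Mis18a moved most with apigenin. Hmgn1 was called higher in each trisomy and each apigenin comparison, as Mis18a and Brwd1 were. Morc3, like Donson, was called with trisomy alone. Whether promoter sequence goes with response was not tested. Each sequence holds the 250 bases before a start site listed by RefSeq (GRCm38.p6), written along the gene's own strand. Capitals mark GGGCGG (the Sp type box), CCAAT and the NRF1 type box, each on either strand.
Mis18a, chr16:90727372-90727621, minus strand: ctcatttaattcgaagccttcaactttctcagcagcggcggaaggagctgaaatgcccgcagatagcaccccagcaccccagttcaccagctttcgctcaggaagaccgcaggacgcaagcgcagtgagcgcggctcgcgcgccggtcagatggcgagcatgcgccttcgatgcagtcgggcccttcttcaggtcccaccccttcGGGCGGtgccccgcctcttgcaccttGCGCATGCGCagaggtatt
Hmgn1, chr16:96127726-96127975, minus strand: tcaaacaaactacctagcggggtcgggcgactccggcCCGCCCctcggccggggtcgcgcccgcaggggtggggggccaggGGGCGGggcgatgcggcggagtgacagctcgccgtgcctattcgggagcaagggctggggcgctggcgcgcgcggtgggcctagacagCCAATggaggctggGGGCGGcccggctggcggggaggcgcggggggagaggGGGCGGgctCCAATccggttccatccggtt
Morc3, chr16:93831871-93832120, plus strand: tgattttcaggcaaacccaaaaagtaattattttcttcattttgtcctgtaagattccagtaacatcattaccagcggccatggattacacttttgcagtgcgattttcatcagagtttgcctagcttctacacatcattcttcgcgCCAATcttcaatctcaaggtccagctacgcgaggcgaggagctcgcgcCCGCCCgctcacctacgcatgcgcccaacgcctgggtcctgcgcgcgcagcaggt

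Over all 10 members, which have 12 listed promoters of this length, the Sp type box was in those of 9, all but Setd4. By promoter it was in 11 of 12, against 32.7% of 32851 RefSeq promoters. CCAAT was in those of 5 members (Hmgn1, Morc3, Setd4, Zbtb21 and Hlcs), or 5 of 12 promoters, against 33.8% of promoters. The NRF1 type box was in 1, that of Mis18a, where it began 19 bases before the start site, against 0.782% of promoters. E2F type boxes, written as TTTCCCGC, TTTCGCGC, TTTGCCGC or TTTGGCGC, were in the window of 0 members and in 1.86% of promoters. TTTGAA, a box found in many genes of mitosis, was in the window of 0 members and in 16% of promoters. CCAAT, NRF1 type and Sp type matches did not overlap one another in the sequences printed. G and C made up 62.4% of the window in Mis18a and 76% in Hmgn1, above the median of 52.4% over all promoters. In Morc3 they made up 50.8%, just below that median. Every other member window lay above the median, up to 79.6% in Brwd1 and Donson. GGGCGG is itself made of G and C alone. These are matches of letters and were not tested for binding.

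The first comparison asked how far the extra copy raised each gene. Averaged over both chows, all 10 members were higher in Ts1Cje (limma, adjusted p under 0.05 over 20239 genes), where 0.489% of all genes were higher and 0.133% lower. The differences ran from 0.15 for Zbtb21 to 0.54 for Donson on the log2 scale, which is 1.11-fold to 1.46-fold, and the median of the 10 was 0.40 beside -0.01 over all genes. The 95% interval included 1.5-fold, the ratio of 3 copies to 2, for Donson and Morc3 and lay below it for the other 8. RMA, the summary method behind the deposited values, compresses fold changes of dim genes, and its part in these differences was not tested. By mean level the dimmest members were Hlcs (percentile 40.8 of all genes, difference 0.36) and Setd4 (48.3, 0.25). Zbtb21 (0.15) lay at percentile 61.5, Prdm15 (0.18) at 72.2 and Hmgn1 (0.23) at 79.4. Forebrain was a bulk sample, so more cells that express a gene and more RNA per cell cannot be told apart.

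**Figure D1:**
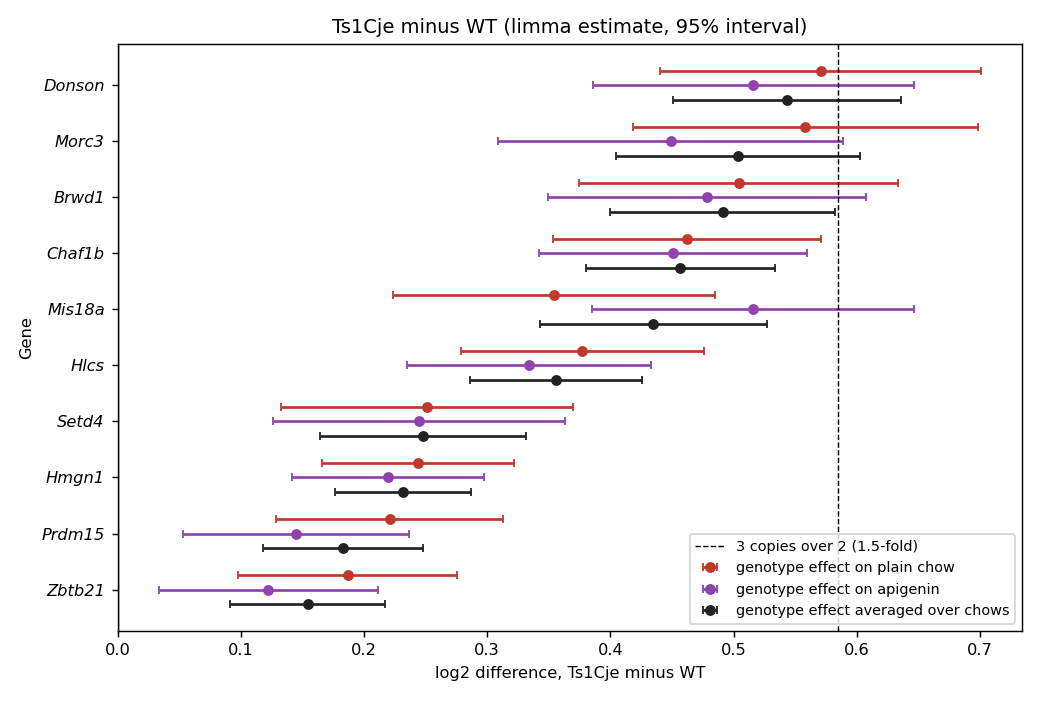
Genotype difference of each member (x axis, log2, Ts1Cje minus WT) as estimated by limma with its 95% interval, on plain chow, on apigenin and averaged over both, with n = 5 embryos per group. The dashed line marks 1.5-fold; the averaged interval reaches it for Donson and Morc3.

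On plain chow 8 of the 10 were called higher and 0 lower, where 0.262% of all genes were called higher and 0.0494% lower. On apigenin 7 were called higher and 0 lower, beside 0.262% and 0.0494% of all genes. Setd4 (0.25 on both chows, adjusted p = 0.077 and 0.099) and Zbtb21 (0.19 and 0.12, adjusted p = 0.081 and 0.66) missed the threshold on each chow taken alone, and Prdm15 missed it on apigenin (0.14, adjusted p = 0.44) but not on plain chow (0.22, adjusted p = 0.025). The lowest Ts1Cje array lay above the highest WT array for all 10 members on plain chow, where 0.716% of all genes were separated that way, and for 8 on apigenin, where 0.855% were. With Benjamini-Hochberg adjustment, the methods' t-test called 2 members on plain chow, and 34 genes of the whole array. In runs of neighbouring embryo numbers, with 2 or 3 embryos per genotype, each member was higher in Ts1Cje in all 4 runs. The runs divide the same arrays again, and the share of all genes higher in all 4 was not computed.

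Among the members that bind or read nucleosomes, Brwd1 and Morc3 rose close to 1.4-fold and Hmgn1 by less. Hmgn1 (chr16:96121588-96127725) encodes a small protein that binds nucleosomes and loosens chromatin. On plain chow its log2 level was 9.29, 9.31, 9.30, 9.21 and 9.30 in the WT arrays and 9.55, 9.50, 9.51, 9.51 and 9.57 in the Ts1Cje arrays. On apigenin it was 9.45, 9.48, 9.44, 9.36 and 9.39 in WT and 9.57, 9.74, 9.62, 9.68 and 9.60 in Ts1Cje. Every WT array lay below every Ts1Cje array, although the highest WT array on apigenin came close to the lowest Ts1Cje array on plain chow. The difference was 0.24 ± 0.04 (SE) on plain chow, 0.22 ± 0.04 on apigenin and 0.23 ± 0.03 averaged, or 1.17-fold (adjusted p = 1.3e-05). Hmgn1 has many near-identical processed copies in the genome, and whether the probes part them from the gene was not tested.

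Brwd1 (chr16:95992089-96082703), a bromodomain and WD repeat protein that reads histone marks, is the next gene before Hmgn1 in the segment. Its WT values on plain chow were 9.51, 9.68, 9.58, 9.41 and 9.40 and its Ts1Cje values 9.94, 10.12, 10.16, 9.89 and 9.98. With apigenin the WT arrays read 9.75, 9.79, 9.82, 9.68 and 9.64 and the Ts1Cje arrays 10.23, 10.35, 10.18, 10.15 and 10.14. Both WT groups lay wholly below both Ts1Cje groups, and within each genotype most apigenin arrays were the higher ones. The averaged difference was 0.49 ± 0.04 (95% interval 0.40 to 0.58), against 0.18 to 0.29 for its neighbour Hmgn1.

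Morc3 (chr16:93832121-93876077), an ATPase that binds a histone mark of active genes and gathers in nuclear bodies, had a wide spread in WT on plain chow, at 9.04, 9.55, 9.28, 9.31 and 9.22. Ts1Cje arrays on plain chow read 9.73, 9.86, 9.89, 9.87 and 9.85. On apigenin the values were 9.38, 9.32, 9.37, 9.29 and 9.29 in WT and 9.76, 9.91, 9.77, 9.66 and 9.81 in Ts1Cje. The genotypes did not overlap on either chow. Replicate 1 was the lowest array in each plain chow group, but replicate numbers do not link arrays of different groups. The difference was 0.56 ± 0.07 on plain chow and 0.45 ± 0.07 on apigenin, averaging to 1.42-fold (95% interval 1.32 to 1.52).

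**Figure D2:**
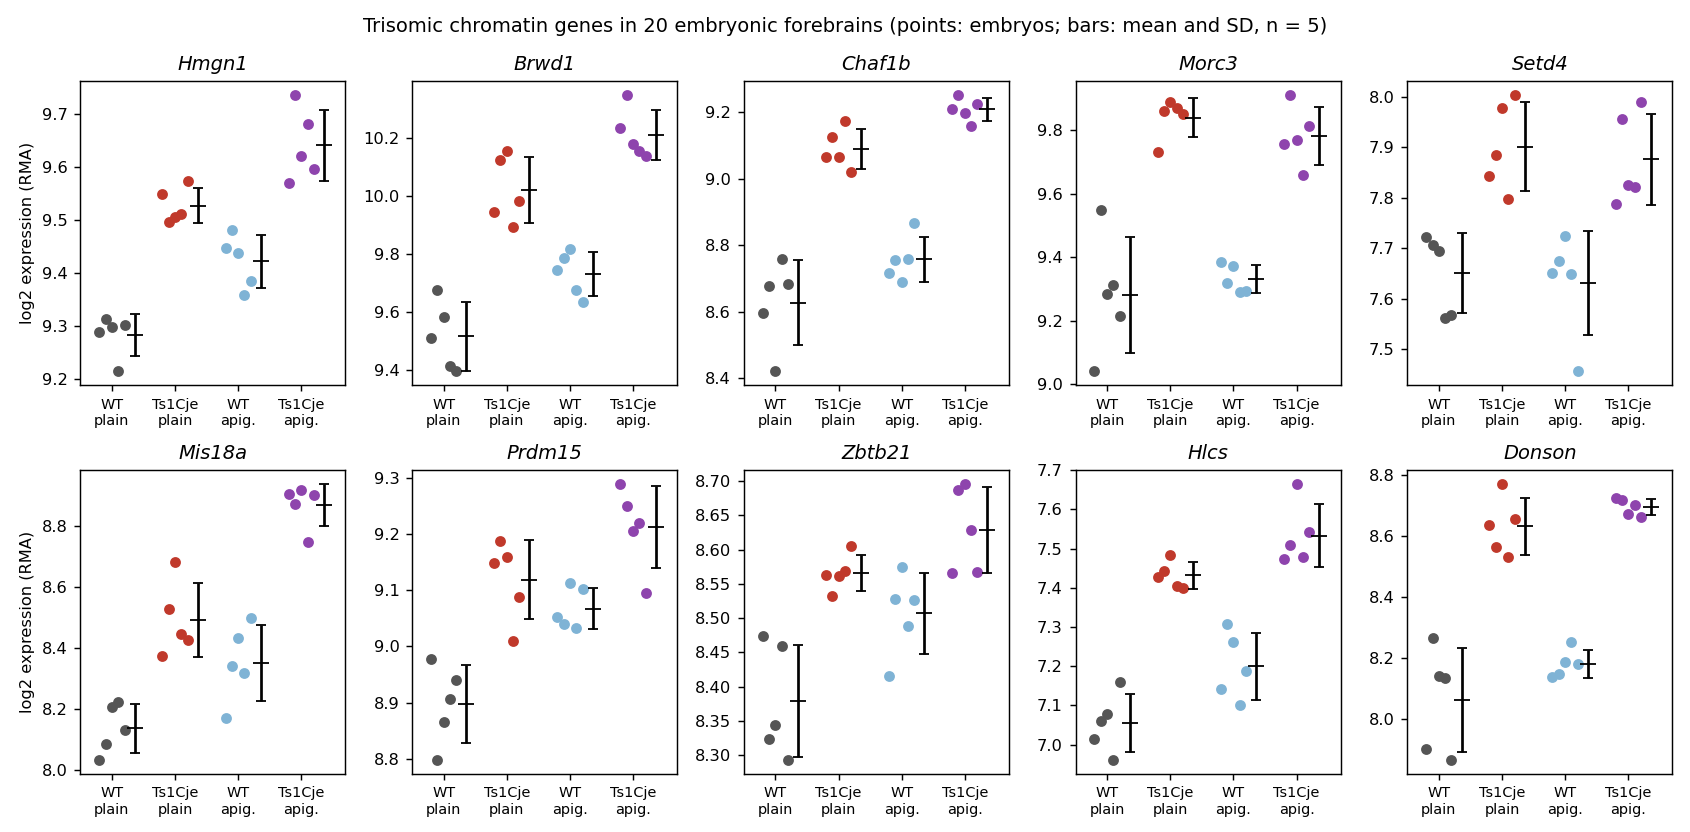
Log2 expression (y axis, RMA value) of each member in the 20 arrays, with 1 point per embryo and the mean and SD of each group of 5 beside it. Ts1Cje arrays sit above WT arrays in 7 panels without overlap, a separation whose share over all genes was not computed. In Mis18a, Prdm15 and Zbtb21 the WT apigenin group reaches into the range of Ts1Cje on plain chow.

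The members of chromatin assembly, centromere and replication rose by 1.35-fold to 1.46-fold. Chaf1b (chr16:93883900-93906115), a subunit of CAF-1, lies next to Morc3 in the segment. It read 8.60, 8.68, 8.42, 8.76 and 8.68 in WT and 9.07, 9.12, 9.07, 9.17 and 9.02 in Ts1Cje on plain chow. In the apigenin groups it read 8.72, 8.76, 8.69, 8.76 and 8.87 in WT and 9.21, 9.25, 9.20, 9.16 and 9.23 in Ts1Cje. WT replicate 3 on plain chow was the lowest array, and no WT array reached a Ts1Cje array. The averaged difference was 0.46 ± 0.04 (adjusted p = 7.1e-08), nearly the same on plain chow (0.46) and on apigenin (0.45).

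Mis18a (chr16:90719312-90727371), a subunit of the complex that licenses the centromere for new CENP-A histone, was the member with the largest apigenin difference. Its values on plain chow were 8.03, 8.09, 8.21, 8.22 and 8.13 in WT and 8.37, 8.53, 8.68, 8.45 and 8.43 in Ts1Cje. On apigenin they were 8.17, 8.34, 8.43, 8.32 and 8.50 in WT and 8.90, 8.87, 8.92, 8.75 and 8.90 in Ts1Cje. The genotypes did not overlap on either chow, but 2 of the 5 WT arrays on apigenin lay above the lowest Ts1Cje array on plain chow. The genotype difference was 0.35 ± 0.06 on plain chow and 0.52 ± 0.06 on apigenin. Within the runs of embryo numbers it ranged from 0.26 to 0.56.

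Donson (chr16:91666856-91688932), which helps to assemble the active replicative helicase, had the largest genotype difference of the 10 and of the 73 measured genes of the segment. WT arrays on plain chow read 7.90, 8.27, 8.14, 8.13 and 7.86, and Ts1Cje arrays 8.64, 8.56, 8.77, 8.53 and 8.66. With apigenin WT read 8.14, 8.15, 8.19, 8.25 and 8.18 and Ts1Cje 8.72, 8.72, 8.67, 8.70 and 8.66. The genotypes were far apart on both chows, and both apigenin groups were tight. The difference was 0.57 ± 0.06 on plain chow and 0.52 ± 0.06 on apigenin, or 1.46-fold averaged (95% interval 1.37 to 1.55, adjusted p = 7.9e-08).

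Setd4, Prdm15 and Zbtb21, a methyltransferase and a pair of zinc finger proteins, rose by less. Setd4 (chr16:93583457-93604791) carries the SET domain of protein lysine methyltransferases. It read 7.72, 7.71, 7.69, 7.56 and 7.57 in WT and 7.84, 7.88, 7.98, 7.80 and 8.003 in Ts1Cje on plain chow. The apigenin arrays read 7.65, 7.67, 7.72, 7.65 and 7.46 in WT and 7.79, 7.95, 7.82, 7.82 and 7.99 in Ts1Cje. Its genotypes did not overlap on either chow, yet the gap was small beside the spread, and only the averaged effect passed (0.25 ± 0.04, adjusted p = 0.0017).

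Prdm15 (chr16:97791467-97851875) is a transcription factor needed for early development of the forebrain. On plain chow WT gave 8.98, 8.80, 8.87, 8.91 and 8.94 and Ts1Cje 9.15, 9.19, 9.16, 9.01 and 9.09. On apigenin WT gave 9.05, 9.04, 9.11, 9.03 and 9.10 and Ts1Cje 9.29, 9.25, 9.21, 9.22 and 9.09. Ts1Cje replicate 5 on apigenin fell among the WT values, so the groups overlapped there. The averaged difference was 0.18 ± 0.03 (adjusted p = 0.003).

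Zbtb21 (chr16:97945795-97962627), a BTB domain zinc finger protein, is the last gene of the segment as counted here. Plain chow WT arrays read 8.47, 8.32, 8.34, 8.46 and 8.29, and the Ts1Cje arrays 8.56, 8.53, 8.56, 8.57 and 8.60. Apigenin WT arrays read 8.42, 8.53, 8.57, 8.49 and 8.53, and the Ts1Cje arrays 8.57, 8.69, 8.70, 8.63 and 8.57. The genotypes were separate on plain chow by a narrow margin and overlapped on apigenin. The averaged difference of 0.15 ± 0.03 (adjusted p = 0.013) was the smallest of the 10.

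Hlcs (chr16:94129306-94315239) encodes the enzyme that attaches biotin to the carboxylases of metabolism, and has also been studied in the nucleus. It read 7.01, 7.06, 7.08, 6.96 and 7.16 in WT and 7.43, 7.44, 7.48, 7.40 and 7.40 in Ts1Cje on plain chow. On apigenin it read 7.14, 7.31, 7.26, 7.10 and 7.19 in WT and 7.47, 7.51, 7.67, 7.48 and 7.54 in Ts1Cje. All WT arrays lay below all Ts1Cje arrays. The difference was 0.36 ± 0.03 averaged, or 1.28-fold (95% interval 1.22 to 1.34).

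An exact permutation test of 5 against 5 gave a two-sided p of 0.0079, the smallest it can give, for the genotype difference of all 10 members on plain chow. On apigenin it gave 0.0079 for 8 members and 0.024 for Prdm15 and Zbtb21. No test compared one member's genotype difference with another's.

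The members are spread along the segment. Of the 73 measured genes from the one after Sod1 to Zbtb21, Donson ranked 1, Morc3 4, Brwd1 7, Chaf1b 11, Mis18a 15, Hlcs 31, Setd4 43, Hmgn1 44, Prdm15 47 and Zbtb21 50 by averaged genotype difference. Mis18a stands near the proximal end as gene 3, and its neighbour Hunk, a protein kinase, differed by 0.33 ± 0.04. Prdm15 and Zbtb21 stand at the distal end as genes 71 and 73, and C2cd2 between them, named after its value was seen, differed by 0.37 ± 0.04. Of the 63 other genes of the segment 37 were called higher, 0 lower and 26 not, with a median of 0.33. Of the other genes above the median level of the array 33 of 35 were called higher (median 0.39), and of the dimmer ones 4 of 28.

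**Figure D3:**
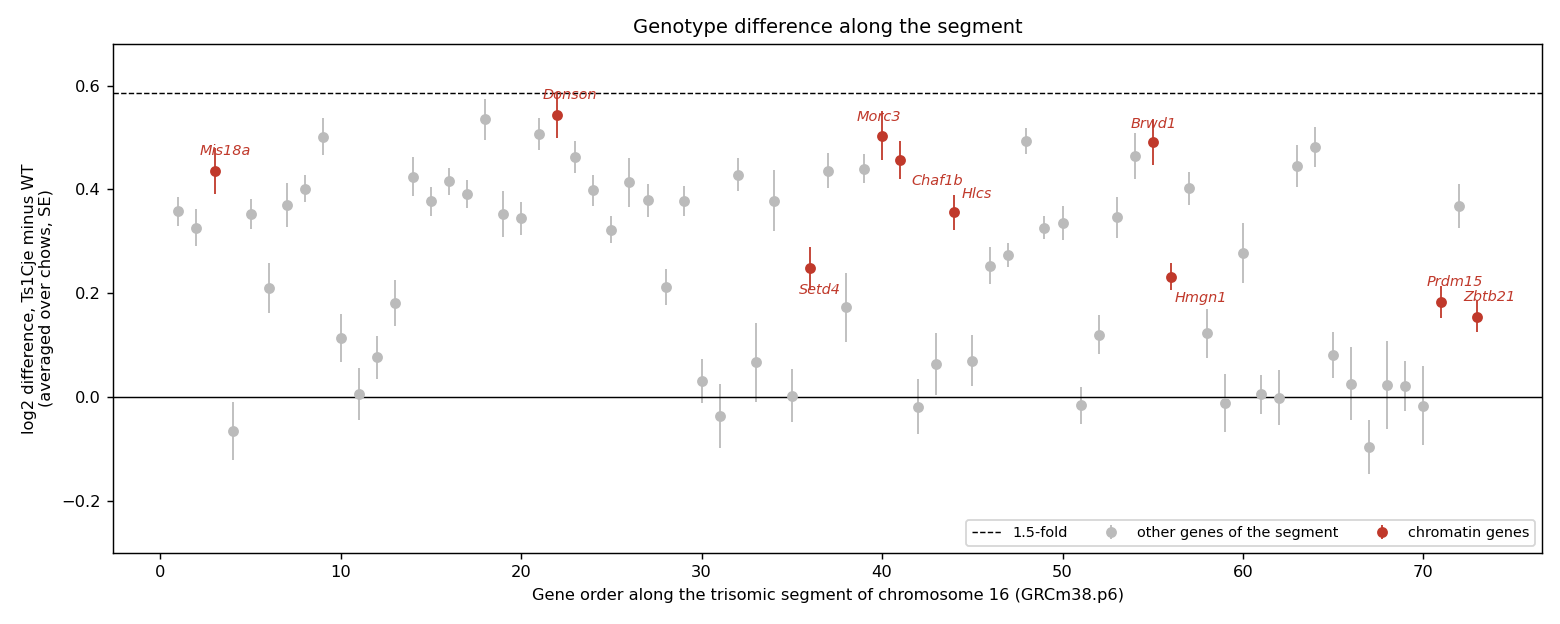
Averaged genotype difference (y axis, log2, with SE) of the 73 measured genes of the segment in their order along chromosome 16 (x axis), members in red. Members lie across the whole segment, and the low values of Prdm15 (0.18) and Zbtb21 (0.15) flank C2cd2 at 0.37.

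The next comparison asked whether apigenin moved these genes. Averaged over genotypes, 7 of the 10 were higher on apigenin and 0 lower (limma, adjusted p under 0.05), where 13.8% of all genes were higher and 12% lower. Mis18a rose by 0.30 ± 0.04 (1.23-fold, adjusted p = 4.2e-05) and Brwd1 by 0.20 ± 0.04 (1.15-fold, adjusted p = 0.0014). Prdm15, Hmgn1, Chaf1b, Hlcs and Zbtb21 rose by 0.10 to 0.13, or 1.07-fold to 1.10-fold. The values for Donson (0.09, 95% interval -0.00072 to 0.18), Morc3 (-0.0038, -0.10 to 0.10) and Setd4 (-0.02, -0.11 to 0.06) did not pass. The median of the 10 was 0.12, beside 0.00 over all genes and -0.02 over the 63 other genes of the segment, of which 8 were higher and 13 lower.

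**Figure D4:**
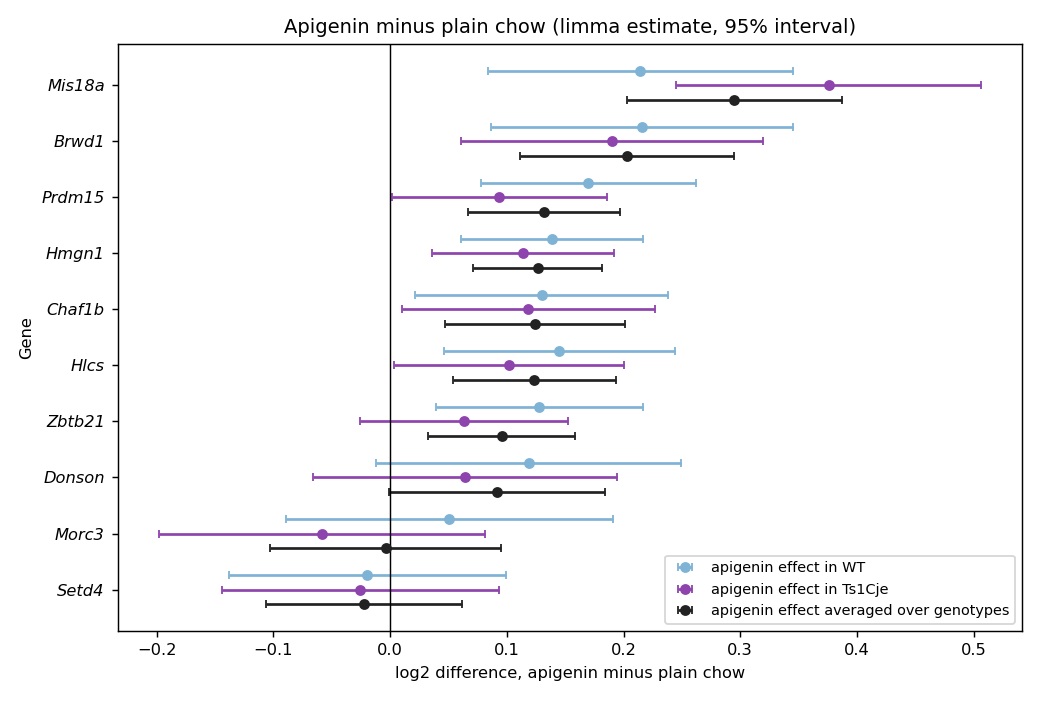
Apigenin difference of each member (x axis, log2, apigenin minus plain chow) as estimated by limma with its 95% interval, in WT, in Ts1Cje and averaged, with n = 5 embryos per group. Mis18a has the largest averaged value at 0.30, and the averaged intervals of Morc3 and Setd4 span 0.

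In WT embryos 4 of the 10 were called higher and 0 lower, where 6.46% of all genes were called higher and 5.85% lower. These were Brwd1 (0.22 ± 0.06, adjusted p = 0.025), Mis18a (0.21 ± 0.06, adjusted p = 0.028), Prdm15 (0.17 ± 0.04, adjusted p = 0.014) and Hmgn1 (0.14 ± 0.04, adjusted p = 0.018). For Hmgn1 and Prdm15 every apigenin array lay above every plain chow array, a separation that 5.16% of all genes showed. The count was 2 without WT apigenin replicate 2 and 2 without WT apigenin replicate 3, and it was 0 at the study's own threshold. The methods' t-test at p under 0.001 also called 0 members, and 865 of 20239 genes in either direction.

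In Ts1Cje embryos 3 of the 10 were called higher and 0 lower, where 8.09% of all genes were higher and 8.17% lower. These were Mis18a (0.38 ± 0.06, adjusted p = 0.00035), Brwd1 (0.19 ± 0.06, adjusted p = 0.040) and Hmgn1 (0.11 ± 0.04, adjusted p = 0.042). Mis18a alone had every apigenin array above every plain chow array, as 7.47% of all genes did. The count was 1, without Ts1Cje plain chow replicate 1 or replicate 4 and without Ts1Cje apigenin replicate 2 or replicate 3.

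No member was called as responding differently to apigenin in the genotypes. The interaction passed for 0 members and 0 of 20239 genes in limma (0%), and an unadjusted p under 0.05 was reached by 0 members and 533 genes. The smallest unadjusted p of a member was 0.083, for Mis18a, whose rise was larger in Ts1Cje by 0.16 (95% interval -0.02 to 0.35). For Morc3 the estimate was -0.11 (-0.31 to 0.09). Of the 10 estimates 9 were below 0, while over all genes 10339 of 20239 were above 0. The 10 estimates come from the same 20 arrays, and their signs were not tested as a set. The interval of every member's interaction included 0.

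The group means followed a common order in most members. WT on plain chow had the lowest mean for 9 members, and Ts1Cje on apigenin the highest for 8, with Ts1Cje on plain chow highest for Morc3 and Setd4. For Mis18a the group means were 8.14 ± 0.080 (SD, n = 5) in WT on plain chow, 8.35 ± 0.123 in WT on apigenin, 8.49 ± 0.120 in Ts1Cje on plain chow and 8.87 ± 0.070 in Ts1Cje on apigenin. Across all 20 arrays 7 members had every WT array below every Ts1Cje array. The share of all genes that separate in this way over both chows was not computed. In Mis18a, Prdm15 and Zbtb21 the apigenin rise of WT reached into the range of Ts1Cje on plain chow.

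Relatives and partners of the members, which lie outside the segment, were read next, by genotype and then by apigenin. Their lists were chosen with earlier results of these data known. By genotype, averaged over chows, 0 of the measured genes in the lists of HMGN, bromodomain WD, MORC, SETD, PRDM and ZBTB relatives, histone chaperones, centromere deposition, replisome, Polycomb complex 2, SWI/SNF and biotin-dependent carboxylases were called by limma. For this effect 8.92% of all genes had an unadjusted limma p under 0.05. Such p values numbered 5 of 20 in the replisome list and 3 of 11 among histone chaperones. They numbered 2 of 10 among PRDM relatives and 1 of 10 among SETD relatives. Each of the other lists just named held 0. In the replisome list 5 of 20 values were above 0, where 8970 of 20239 were over all genes. Mcm7 lay at -0.11 ± 0.04 and Mcm2 at -0.08 ± 0.03, neither past the threshold. Hjurp lay at -0.03 ± 0.04 and Phip at 0.02 ± 0.03.

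By apigenin, most listed partners of Mis18a, Chaf1b and Donson were called higher, where 13.8% of all genes were higher and 12% lower. Of 6 measured genes of centromere deposition 5 were higher and 0 lower (median 0.34), with the centromeric histone Cenpa at 0.42 ± 0.03, Cenpn at 0.36 ± 0.05, Cenpi at 0.34 ± 0.06 and the CENP-A chaperone Hjurp at 0.17 ± 0.04. Of 11 histone chaperone genes 7 were higher and 0 lower (median 0.17), among them Asf1b at 0.31 ± 0.04, Nasp at 0.30 ± 0.03 and Chaf1a, the large subunit of CAF-1, at 0.23 ± 0.03. Of 20 replisome genes 18 were higher and 0 lower (median 0.27), among them the helicase subunits Mcm3 at 0.52 ± 0.04, Mcm2 at 0.41 ± 0.03, Mcm7 at 0.32 ± 0.04 and Mcm5 at 0.29 ± 0.03. Donson, which works with them, lay at 0.09 and did not pass.

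Relatives of the other members gave fewer calls, in several lists near the 13.8% higher and 12% lower of all genes. Hmgn5 rose by 0.45 ± 0.11 and Hmgn3 lay at 0.00, Phip rose by 0.18 ± 0.03 and Brwd3 lay at 0.09, and Morc2a rose by 0.13 ± 0.02 as the 1 called gene of 4 MORC relatives. Of 10 SETD relatives 1 rose (Setdb1, 0.09) and 1 fell (Setd1b, -0.12). Of 10 PRDM relatives 2 rose (Prdm16, 0.21, and Prdm2, 0.10) and 0 fell. Of 11 ZBTB relatives 2 rose and 4 fell, with Zbtb33 at 0.13 and Zbtb7a at -0.18. Of 8 genes of carboxylases and biotin use 2 rose (Mccc1, 0.18, and Pcca, 0.15) and 1 fell (Pcx, -0.15). In Polycomb complex 2, which places a repressive histone mark, 4 of 10 rose and 1 fell (Eed 0.25, Mtf2 0.24, Ezh2 0.15). In the SWI/SNF remodelling complex 4 of 17 rose and 2 fell (Actl6a 0.30, Dpf2 0.29, Arid1b -0.11).

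**Figure D5:**
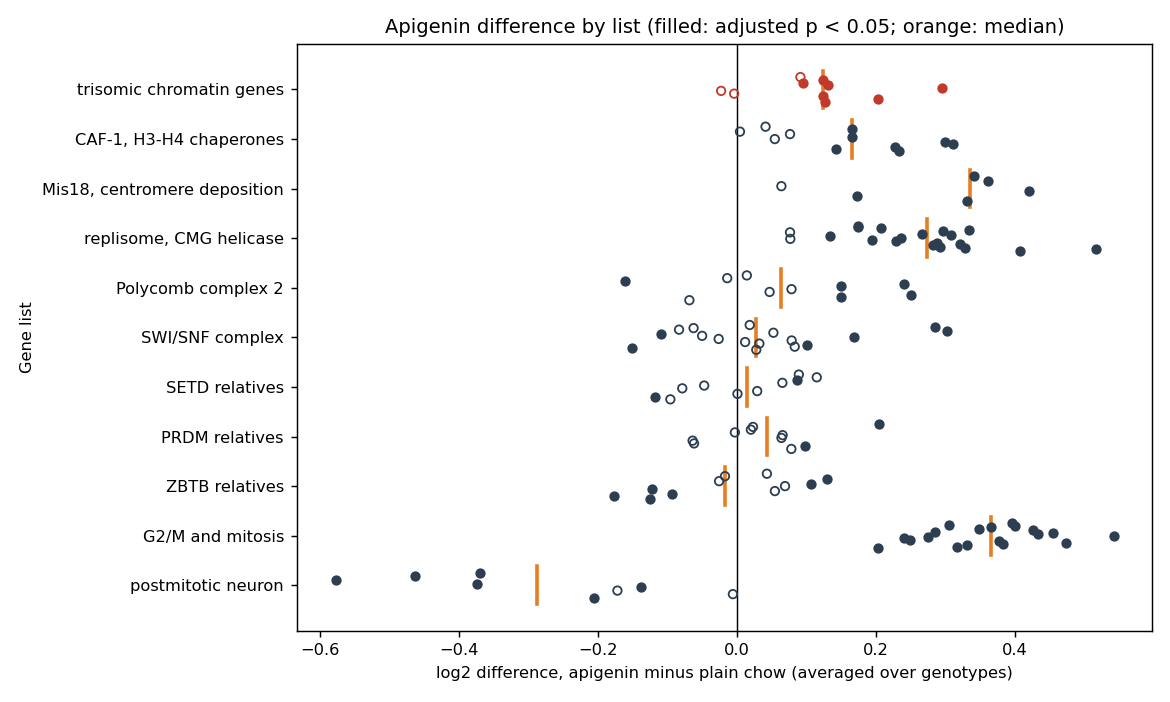
Averaged apigenin difference (x axis, log2) of each gene in the member list and in the lists of relatives and partners (rows), filled where the adjusted p was under 0.05, with the list median in orange. The member median of 0.12 lies below those of centromere deposition (0.34) and the replisome (0.27).

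Markers of dividing cells and of neurons moved with apigenin as well, where 13.8% of all genes were higher and 12% lower. These lists, too, were chosen with earlier results of these data known, so their counts are a description and no independent test. In the list of G2/M and mitosis all 19 measured members rose (median 0.37), and their mean level per array was 8.89 to 9.20 on plain chow and 9.33 to 9.52 on apigenin. Of 8 genes of postmitotic neurons 6 fell, 0 rose and 2 were not called (median -0.29). Their levels were 11.03 to 11.19 on plain chow and 10.74 to 10.86 on apigenin. Both lists separated the chows without overlap, as Mis18a did in Ts1Cje and as Hmgn1 and Prdm15 did in WT, and their part in the rise of the members was not tested. Of 6 forebrain markers 5 rose (median 0.15). In the erythroid list the embryonic globins Hbb-y (2.78) and Hba-x (0.75) rose and the haem synthesis enzyme Alas2 fell (-0.21, adjusted p = 0.0495). Of 6 endothelial markers 1 fell (Flt1, -0.18), and of 6 choroid plexus markers 2 rose (Clic6, 0.19, and Kcne2, 0.15) and 1 fell (Kl, -0.19). Of 8 markers of midbrain, hindbrain and cord 1 rose (Pax8, 0.11), and of 6 microglial and 6 meningeal markers 0 were called.

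By genotype 0 of 19 G2/M genes, 0 of 8 neuronal genes, 0 of 6 microglial, 0 of 6 meningeal and 0 of 6 endothelial markers were called. Averaged over chows, the unadjusted limma p was under 0.05 for 4 of 6 endothelial and 1 of 6 meningeal markers. It was so for 0 genes of the other lists just named and for 8.92% of all genes. The mean endothelial level was 9.09 to 9.20 in WT and 9.20 to 9.30 in Ts1Cje on plain chow, and 9.12 to 9.23 and 9.17 to 9.20 on apigenin. Its part in the genotype differences was not tested. In the choroid plexus list Clic6 (0.38) and Kcne2 (0.21) were called higher, and both are genes of the segment.

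Within groups, the members did not vary as a block. After each array's deviation from its group mean was taken, Pearson's r between pairs of members over the 20 arrays was highest for Morc3 with Donson (0.60) and Brwd1 with Setd4 (0.59), and lowest for Chaf1b with Setd4 (-0.51). The genes outside the list with the most similar deviations were Slc35a3 for Morc3 (0.95), Pcdh9 for Brwd1 (0.94), Gm12298 for Zbtb21 (0.91), Slc25a13 for Mis18a (0.90) and Khdrbs3 for Donson (0.88). For Chaf1b it was Zfp11 (0.84), for Setd4 Eml6 (0.83), for Hmgn1 Olfr1364 (0.81), for Prdm15 Srgap1 (0.81) and for Hlcs Lamp5 (0.73). These are the highest of 20239 genes each over arrays that share their normalization, so they are given as a description only. By limma, Slc25a13 was called higher on apigenin (0.30, adjusted p = 1.6e-05), close to the 0.30 of Mis18a. Eml6 (-0.21, adjusted p = 0.00066) and Srgap1 (-0.07, adjusted p = 0.023) were called lower. Their members did not fall with them, as Setd4 lay at -0.02 without passing and Prdm15 rose by 0.13. The other similar genes named here were not called by apigenin.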

How the data were processed

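Forebrain RNA of 20 embryos was measured on Affymetrix arrays. The deposited table holds log2 values per probe set, which the authors computed with RMA, per the submitters' processing notes. No version, chip definition or genome build is given in the sources used here. RMA corrects background, gives all arrays 1 distribution and compresses folds of dim genes. Of 21225 probe sets 20239 had 1 symbol in GEO's platform annotation, 0 had several and 986 were not listed. Coordinates and promoters are from RefSeq tables of GRCm38.p6.

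Groups came from the genotype and treatment labels. With limma 3.58.1 in R 4.3.3, lmFit and eBayes fitted 1 mean per group over all 20 arrays for 7 effects, two-sided, Benjamini-Hochberg adjusted over 20239 genes, called at 0.05. The fit was tested on simulated data. Having 5 arrays per group limits precision. Lists were described by counts and medians only. Named were all members, up to 4 genes of each list with the smallest p, the gene whose deviations were most like each member's, and segment neighbours. The members and the lists were chosen with earlier results of these data known. A planned comparison of member proteins was not analysed here. Alternatives were other thresholds, the methods' t-test, fits on 2 groups, filters on dim genes, normalizations, array weights, priors, embryo number runs, a Y-linked covariate and leaving out each array.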

Additional observations from a re-analysis of the deposited data

Results flagged for a closer look

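In each of the 40 groups formed by 10 members and 4 conditions, the highest and the lowest array were compared with the others by Dixon's criterion, and 4 groups held an array that stood apart. Chance gives about 1 such group in 20. Hmgn1 was 9.21 in WT plain chow replicate 4, below the 9.29 to 9.31 of the other 4 arrays. Morc3 was 9.73 in Ts1Cje plain chow replicate 1, below the 9.85 to 9.89 of the others. Setd4 was 7.46 in WT apigenin replicate 5, below 7.65 to 7.72. Mis18a was 8.75 in Ts1Cje apigenin replicate 4, below 8.87 to 8.92. All of these arrays were the lowest of their group, and each lay in another group. Each value stayed on its own side of the other genotype's range on the same chow.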

How the results depend on the processing

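All 10 members stayed higher in Ts1Cje, averaged over chows, in all 29 alternatives. Apigenin counts depended on the threshold. Among the alternatives below, counts over all genes were made only for the methods' t-test. At p under 0.001 with a false discovery rate under 10%, limma called 0 members in WT (4 in the report), 1 in Ts1Cje (3) and 4 averaged (7), 4, 7 and 11 other segment genes (12, 11 and 21), and 49 genes of the other lists in Ts1Cje (78). The methods' t-test at p under 0.001 called 0 members in WT and 1 in Ts1Cje, where it called 865 and 1332 of 20239 genes. It called 2 other segment genes in WT, and 31 and 29 genes of the other lists (66 and 78). After Benjamini-Hochberg adjustment it called 2 members by genotype on plain chow (8), beside 34 of all genes, and 2 by apigenin in WT, beside 1641. It then called 5 other segment genes in WT, and 0 genes of the other lists by genotype on either chow (1 and 1). With only 2 groups in the fit, 1 member was called by apigenin in WT, 1 in Ts1Cje, and 5 other segment genes in WT. By genotype on plain chow the other lists gave 0 genes there, and 0 after renewed quantile normalization, with array weights, a trended robust prior, the embryo number block or the Y-linked covariate. The 1 gene otherwise called is Kcne2, a gene of the segment.

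Leaving out 1 array, the apigenin counts were 2 to 6 members in WT, 1 to 3 in Ts1Cje and 6 to 12 other segment genes in WT, and the other lists gave 0 to 1 gene by genotype on each chow. Values that never passed the threshold changed sign. The Chaf1b interaction was 0.00087 after renewed quantile normalization and ran from -0.044 to 0.040 without single arrays. Setd4 in WT was 0.011 with array weights and ran from -0.043 to 0.024, and in Ts1Cje from -0.054 to 7.5e-05. Morc3 ran from -0.0092 to 0.12 in WT and from -0.034 to 0.030 averaged. The interactions ran from -0.066 to 0.0086 for Brwd1 and from -0.050 to 0.020 for Setd4. The causes were not tested. No paired analysis was possible because the labels give no replicate numbers shared between groups. Runs of neighbouring embryo numbers served as a block instead and left the members' counts at 8 and 7 by genotype and at 4 in WT and 2 in Ts1Cje (3) by apigenin.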
